A study of Mus musculus with 15 samples.

Results

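The 10 genes described here are known mainly from neutrophils. They include S100a8 and S100a9, and the mature-cell genes Retnlg, Csf3r and Ly6g. The secondary granule genes are Ltf, Ngp and Camp, and the primary granule genes are Mpo and Elane. All 10 were taken by symbol from the deposited count tables, where they are 10 of 24499 genes. All 10 passed the filter on low counts in both models that were fitted. The samples were livers of adult male C57BL/6 mice, 15 libraries in 8 groups, each numbered here as in its title. Before day 0 the CCl4 groups had received carbon tetrachloride, a solvent whose breakdown in hepatocytes damages the liver, by intraperitoneal injection at 0.2 ml/kg 2 times a week for 6 weeks. The other groups carry the label OO, which is not spelled out. At day 0 there were OO livers (libraries 1 and 2) and CCl4 livers (libraries 3 and 4). At day 20 there were CCl4 livers with chow (libraries 16 and 17) or with ethanol (libraries 18, 19 and 20), both with CCl4 continued at 0.5 of the dose, and OO livers with chow (library 12) or with ethanol (libraries 13, 14 and 15). At day 23 there were OO livers with chow (library 5) or with ethanol (library 6), from another substudy in the titles. Titles of the day 23 livers read OO+chow and OO+EtOH, and those of the day 20 OO livers OO+OO/chow and OO+OO/EtOH. Ethanol ran through a gastric tube at up to 25 g/kg per day for 3 weeks and is labelled together with a high-fat diet, so ethanol and diet differ together throughout. Whether the libraries of a group came from separate animals is not given in the labels, and p-values then speak only for the scatter among these libraries, which may be technical.

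Neutrophils are made in bone marrow, where granule proteins are laid down in order. Promyelocytes transcribe the primary (azurophil) granule genes, such as myeloperoxidase (Mpo) and neutrophil elastase (Elane). Myelocytes and metamyelocytes then transcribe the secondary granule genes, such as lactoferrin (Ltf), neutrophilic granule protein (Ngp) and the cathelicidin Camp. Circulating mature cells keep abundant mRNA of S100a8 and S100a9, which encode the subunits of calprotectin, and of Retnlg, a resistin-like secreted protein. Csf3r encodes the receptor for the growth factor G-CSF, and Ly6g encodes the surface antigen used to recognise mouse neutrophils. Monocytes also transcribe S100a8, S100a9 and Csf3r at lower levels. In liver injury neutrophils leave the sinusoids for damaged parenchyma, and alcoholic hepatitis is known for their infiltration.

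In the GENCODE M21 annotation of GRCm38 several of these genes are neighbours. S100a8 lies on chromosome 3 at 90668978 to 90670035 (plus strand) and S100a9 at 90692632 to 90695721 (minus strand), 22.6 kb apart. Camp (109847379 to 109849617, minus strand), Ngp (110419747 to 110423012, plus strand) and Ltf (111019271 to 111042767, plus strand) follow each other on chromosome 9, with 570 kb between Camp and Ngp and 596 kb between Ngp and Ltf. Mpo lies on chromosome 11 at 87793581 to 87804413 and is overlapped by the antisense gene Gm11505. Elane lies on chromosome 10 at 79886247 to 79888215.

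C/EBP factors and PU.1 are the transcription factors best known for driving granule genes, and since the members moved together, their promoters were searched for both motifs. In the 250 bases before the start site in RefSeq (GRCm38.p6; all 10 genes had an entry), the C/EBP motif TTGCNNAA was found on either strand for 5 of 10 members (S100a9, Ltf, Ngp, Retnlg and Ly6g), against 9.56% of the 32851 promoters of all genes. The PU.1 motif GAGGAAG was found for 5 of 10 (S100a8, Mpo, Elane, Csf3r and Ly6g), against 10.6% of all promoters. The Csf3r match, 86 bases before the RefSeq start, lies after the GENCODE start of that gene. Members were counted by gene, and the promoters of all genes by entry. Neither motif contains the other, and no matches overlapped. Camp had neither in this window. The 4 stretches below are printed as examples. S100a9 is the most abundant member, Ltf and Ngp stand for the secondary granules, and Elane stands for the primary granules. Each is given 5′ to 3′ on the gene's strand, cut where either annotation starts the transcript, with motif matches in capitals. They are S100a9 at chr3:90695722-90695971 (minus strand), Ltf at chr9:111019042-111019270, Ngp at chr9:110419558-110419746 and Elane at chr10:79886062-79886246 (all plus strand).
S100a9: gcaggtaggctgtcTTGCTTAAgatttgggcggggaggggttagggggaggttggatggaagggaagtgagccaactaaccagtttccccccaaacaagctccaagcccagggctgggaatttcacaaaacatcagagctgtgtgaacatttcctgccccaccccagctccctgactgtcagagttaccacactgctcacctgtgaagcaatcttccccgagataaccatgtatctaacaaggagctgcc
Ltf: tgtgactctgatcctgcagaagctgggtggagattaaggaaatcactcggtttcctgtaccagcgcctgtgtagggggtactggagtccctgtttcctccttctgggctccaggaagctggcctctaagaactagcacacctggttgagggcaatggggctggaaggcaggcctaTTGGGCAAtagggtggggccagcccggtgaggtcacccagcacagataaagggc
Ngp: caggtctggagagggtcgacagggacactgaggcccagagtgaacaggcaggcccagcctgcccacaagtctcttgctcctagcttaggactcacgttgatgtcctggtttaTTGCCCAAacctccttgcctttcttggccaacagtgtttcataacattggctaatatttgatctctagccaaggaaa
Elane: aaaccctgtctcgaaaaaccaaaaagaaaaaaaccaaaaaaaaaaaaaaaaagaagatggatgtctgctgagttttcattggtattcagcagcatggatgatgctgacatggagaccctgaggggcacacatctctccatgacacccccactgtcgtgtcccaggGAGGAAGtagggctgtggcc
The match in Ltf, TTGGGCAA at 75 bases before the RefSeq start, is the reverse complement of that in Ngp, TTGCCCAA at 138 bases before its start, and Ngp has a second match nearer to the RefSeq start, beyond the printed stretch. A match is a run of letters in the reference and no measurement of binding.

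Reads counted for genes numbered 10347844 to 28843258 per library, and 1 read was worth 0.0377 to 0.0991 CPM. CPM are TMM-normalised counts scaled to a common library size, the unit of all levels below unless stated. A count of 3 reads, taken as the floor of detection, was worth 0.113 to 0.297 CPM. These values cover counting error only. Hepatocyte transcripts set the tissue, with Alb at 33025 CPM or more in every library. Libraries 6 and 12 also held transcripts of exocrine pancreas. Pnlip, pancreatic lipase, read 20.4 and 23.2 CPM there and at most 0.177 CPM in the other 13 libraries. Tests of the 10 genes that use these libraries are given with and without them. As whole tissue was sequenced, more neutrophils, more RNA per neutrophil and reads from other cells such as monocytes cannot be told apart.

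The 10 genes were scarce in most livers and abundant in those that had CCl4 continued to day 20. Their summed level was 12.1 to 38.6 CPM in 9 libraries: all those of day 0, those of day 23 and the day 20 OO ethanol livers. It was 108 CPM in the day 20 OO chow liver, library 12. In CCl4 livers at day 20 it reached 288 and 280 CPM with chow and 128, 71.1 and 198 CPM with ethanol. For 8 of 10 genes the lowest of the 5 day 20 CCl4 livers lay above the highest of those 9 libraries. The exceptions were Mpo and Elane, which were low in library 19. Ly6g is among the 8 only by 3 reads in library 19 against 2 in library 1, both 0.184 CPM when rounded. Library 12 was above the 9 for all 10 genes, though barely for Retnlg (2.69 against 2.68 CPM in library 13) and on 5 reads for Ly6g. Only Retnlg had the 5 CCl4 livers above library 12 as well. The share of all genes that show these orders was not computed, so the counts are descriptions.

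**Figure D1:**
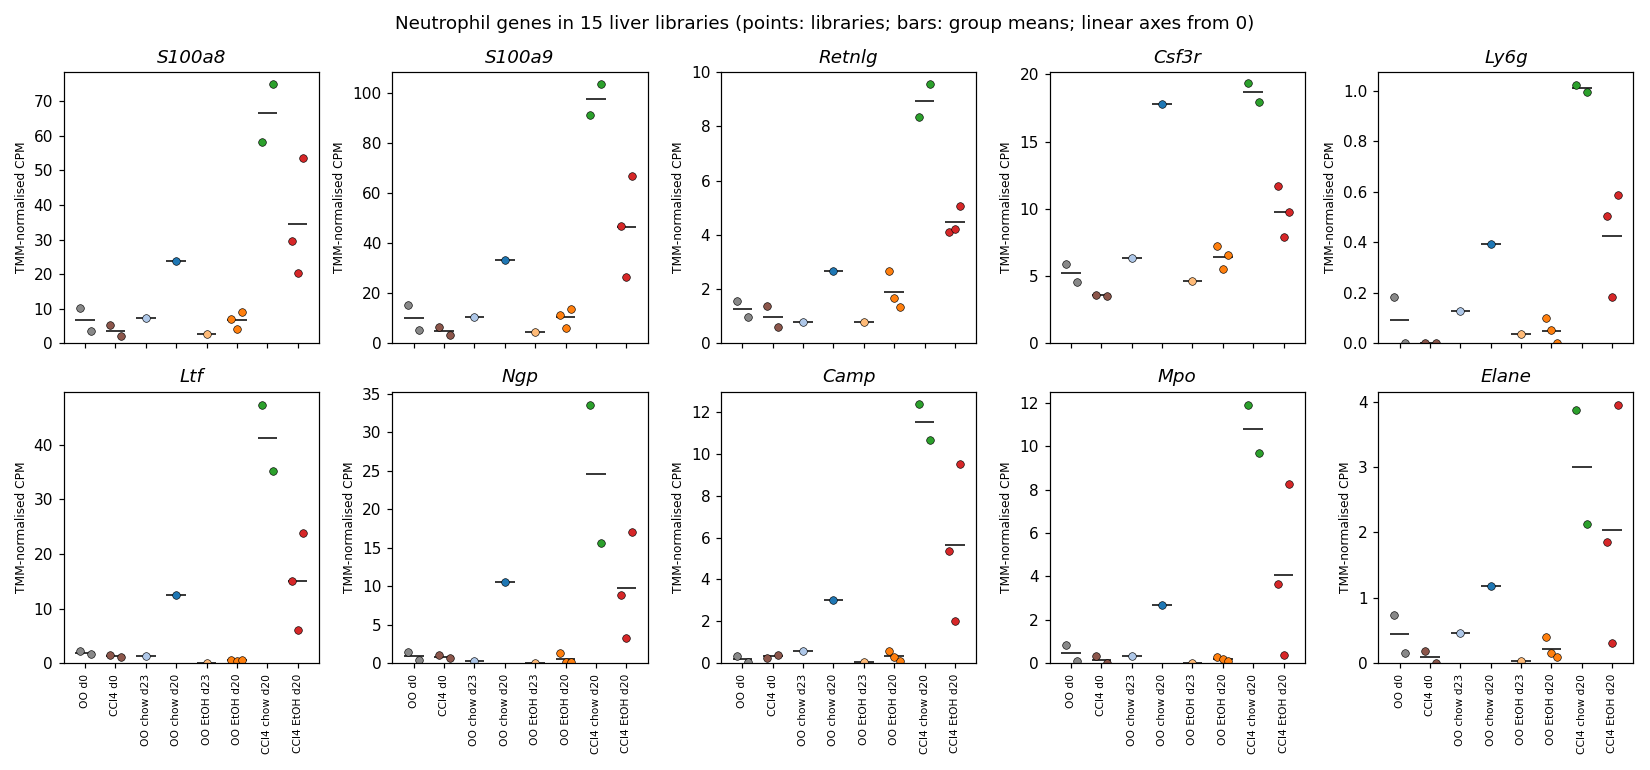
Level of each of the 10 genes in every library (TMM-normalised CPM, linear axes from 0), with points for libraries, bars for group means and groups along the horizontal axis (d0, d20 and d23 are days). For 9 of 10 genes the highest library is a CCl4 chow liver of day 20, and library 12, the day 20 OO chow liver, stands above the other OO livers, though barely for Retnlg.

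S100a9 and S100a8 gave most of the reads. S100a9 was at 15.2 and 5.19 CPM in OO livers at day 0, 6.51 and 3.56 CPM in CCl4 livers at day 0, 11.3, 6.06 and 13.9 CPM in OO ethanol livers at day 20 and 4.38 CPM in the day 23 ethanol liver. Its level was 10.7 CPM in the day 23 chow liver, 33.4 CPM in the day 20 OO chow liver, 91.6 and 104 CPM in CCl4 chow livers and 46.8, 26.5 and 66.8 CPM in CCl4 ethanol livers. The CCl4 livers of day 20 therefore overlap no other group except through library 12, which exceeds library 19. S100a8 followed the same order, from 2.08 CPM in library 4 to 74.8 CPM in library 17. The S100a9 to S100a8 read ratio stayed within 1.22 to 1.71 over all 15 libraries, while S100a9 itself ranged from 3.56 to 104 CPM. Their log2 levels correlated at r = 0.997 (rho = 0.996), the closest of the 45 pairs of members, whose r ran from 0.817 to 0.997. These points share the libraries and their depth, and the correlations are descriptions.

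Ltf, the iron-binding protein of secondary granules, was at 2.20 and 1.60 CPM in OO livers at day 0, 1.44 and 1.19 CPM in CCl4 livers at day 0, 0.594, 0.365 and 0.620 CPM in OO ethanol livers at day 20 and at 0 reads in the day 23 ethanol liver. It was at 1.24 CPM in the day 23 chow liver, 12.6 CPM in library 12, 47.4 and 35.2 CPM in CCl4 chow livers and 15.1, 6.01 and 23.9 CPM in CCl4 ethanol livers. Ltf was thus lowest in OO ethanol livers, below both day 0 groups, and this order was not shared by S100a9. Ngp, a cathelicidin-like granule protein, ranged from 0 in library 6 to 33.6 CPM in library 16. Camp, the antimicrobial cathelicidin, ranged from 0.0754 CPM in library 6 to 12.4 CPM in library 16.

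Mpo, the peroxidase that makes hypochlorous acid, was at 0.826 and 0.0798 CPM in OO livers at day 0, 0.313 CPM and 0 in CCl4 livers at day 0, and 0.297, 0.209 and 0.0885 CPM in OO ethanol livers at day 20. It was at 0 in the day 23 ethanol liver, 0.325 CPM in the day 23 chow liver, 2.69 CPM in library 12, 11.9 and 9.69 CPM in CCl4 chow livers and 3.63, 0.368 and 8.25 CPM in CCl4 ethanol livers. Outside the day 20 CCl4 livers and library 12 it had at most 9 reads per library. Elane, a serine protease, ran from 0 in library 4 to 3.96 CPM in library 20. Library 19 held 6 reads of Mpo and 5 of Elane, against 86 and 44 in library 18 and 98 and 47 in library 20.

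Csf3r, the G-CSF receptor, varied least. It was at 5.87 and 4.55 CPM in OO livers at day 0, 3.63 and 3.56 CPM in CCl4 livers at day 0, 7.23, 5.53 and 6.55 CPM in OO ethanol livers at day 20 and 4.60 CPM in the day 23 ethanol liver. It was at 6.37 CPM in the day 23 chow liver, 17.8 CPM in library 12, 19.4 and 17.9 CPM in CCl4 chow livers and 11.7, 7.91 and 9.77 CPM in CCl4 ethanol livers. Library 12 thus equalled the CCl4 chow livers for Csf3r and exceeded all 3 CCl4 ethanol livers. Retnlg ran from 0.593 CPM in library 4 to 9.56 CPM in library 17. Ly6g had at most 15 reads in any library, and its highest level was 1.02 CPM. Reads that align to several places were not counted, so the level of Ly6g, which has close paralogs, is uncertain.

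Per kilobase of exon, the scale on which genes can be compared, S100a9 and S100a8 led in CCl4 chow livers with mean levels of 187 and 95.9 CPM per kb (n = 2). Ngp (20.1), Camp (15.2), Retnlg (15.1) and Ltf (12.0 CPM per kb) came next, with Csf3r at 5.17, Mpo at 3.16, Elane at 3.05 and Ly6g at 1.07 CPM per kb. Neighbours such as Camp and Retnlg, or Mpo and Elane, do not differ beyond the spread of their 2 libraries.

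At day 0 no member passed the test of CCl4 against OO livers. In this comparison 2.06% of the 14778 genes tested were called, that is, had a Benjamini-Hochberg adjusted p under 0.05 in edgeR's quasi-likelihood test. For 9 of 10 members the fitted change was below 0, and the median over all 10 was -0.67 (log2), or -0.53 without Ly6g, which was at or under the floor in both groups, against 0.01 over all genes. At an unadjusted p under 0.05 there was 1 member, and adjusted p ran from 0.290 to 0.990. Without library 1, the OO liver with the higher levels, 5 members had a positive change, and DESeq2 and limma-voom also called 0 members. S100a9 averaged 10.2 ± 7.10 CPM (SD, n = 2) in OO livers and 5.04 ± 2.09 CPM (n = 2) after CCl4. Its log2 change was -0.97 with an SE of 0.57 (adjusted p = 0.432), and values after ± on log2 changes are SEs from here on. The groups did not overlap for 2 members, Ltf and Csf3r, while 29% of all genes were lower without overlap, with log2 changes of -0.50 ± 0.63 (adjusted p = 0.752) and -0.53 ± 0.24 (adjusted p = 0.290).

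Of the other neutrophil genes tested, 1 of 4 primary granule and 2 of 8 secondary and tertiary granule genes fell at day 0, and 0 of 10 mature neutrophil, 0 of 6 NADPH oxidase and 0 of 9 recruitment genes passed. Lcn2, lipocalin 2, which is packed in secondary granules and is also an acute phase product of hepatocytes, read 8.58 and 4.55 CPM in CCl4 against 1174 and 277 CPM in OO livers, a log2 change of -6.76 ± 0.81 (adjusted p = 0.00158). Prtn3, proteinase 3 of primary granules, read 0.751 and 0.396 against 23.0 and 6.23 CPM (log2 change -4.57 ± 0.83, adjusted p = 0.0167). Mmp9, the gelatinase of tertiary granules, fell by 2.01 ± 0.45 on the log2 scale (adjusted p = 0.0478). Of the 10 acute phase genes 8 fell, with a median of -3.65, and their summed level was 11447 to 12097 CPM in CCl4 and 31206 to 57144 CPM in OO livers. Their part in the Lcn2 and Prtn3 results was not tested.

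From day 0 to day 20 all 10 members rose in CCl4 livers kept on chow, with no overlap between libraries 16 and 17 and libraries 3 and 4 for any of them, as for 30.9% of all genes tested in this direction. In this comparison 11.5% of genes were called and 7.27% were called higher. The median log2 change was 4.73, or 4.44 with Ly6g, which had no read in libraries 3 and 4, at its lower bound, against 0.02 over all genes. S100a9 went from 5.04 ± 2.09 to 97.6 ± 8.52 CPM (log2 change 4.24 ± 0.58, adjusted p = 0.0018), and S100a8 rose by 4.11 ± 0.61 (adjusted p = 0.0026). Among secondary granule genes the log2 changes were 4.95 ± 0.56 for Ltf (adjusted p = 0.000826), 4.81 ± 0.93 for Ngp (0.00865) and 5.18 ± 0.79 for Camp (0.00287). Mpo rose by 5.80 ± 1.28 (adjusted p = 0.0164) and Elane by 4.64 ± 1.23 (0.0346). Retnlg rose by 3.11 ± 0.41 and Csf3r by 2.37 ± 0.23, the least of the 10 (adjusted p = 0.00156 and 0.000442). Ly6g was at least 8.78-fold higher, against a floor of 3 counts over both day 0 libraries. Leaving out any of the 4 libraries leaves its group without a replicate, and calls over all genes then fell as well. Without library 3 the calls of Ngp, Camp, Mpo, Elane and Ly6g were lost (adjusted p from 0.0596 for Camp to 0.142 for Elane), and without library 4 those of Ngp, Mpo, Elane and Ly6g (0.0887 to 0.191). Without library 16 Mpo and Elane (0.0524 and 0.123) and without library 17 Elane and Ly6g (0.0668 and 0.0558) were lost. By limma-voom Mpo and Elane were not called (0.0892 and 0.102). The calls of S100a8, S100a9, Ltf, Retnlg and Csf3r held when any of the 4 libraries was left out.

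In CCl4 livers given ethanol, all 10 members were also higher at day 20 than at day 0, again with no overlap, as for 28.3% of all genes in this direction, and 20.7% of genes were called and 11.6% called higher. The 2 day 20 groups are set against the same day 0 libraries, so that these results are not independent. The median log2 change was 3.47, or 3.32 with Ly6g at its bound. It was 3.17 ± 0.54 for S100a9 (adjusted p = 0.00205), 3.48 ± 0.53 for Ltf (0.00106), 4.37 ± 1.26 for Mpo (0.0301) and 1.45 ± 0.22 for Csf3r (0.00101). Ly6g was at least 3.71-fold higher against the same floor. Leaving out library 3 or library 4 leaves the day 0 group without a replicate, and calls over all genes then fell as well. Without library 3 only 5 calls were left, the S100 genes, Ltf, Retnlg and Csf3r, and without library 4 there were 6. Leaving out library 18 or library 20 ended the calls of Mpo, Elane and Ly6g, with adjusted p from 0.0563 to 0.0875, and leaving out library 19 ended none. Ngp, Mpo and Elane were not called by limma-voom (0.0813, 0.245 and 0.173), nor Mpo and Elane in a fit on these 5 libraries alone (0.0635 and 0.0617).

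Many other genes of the fixed neutrophil lists rose over the same interval. Of the other 8 secondary and tertiary granule genes tested, 6 rose with chow and 6 with ethanol, among them Mmp9, Mmp8, a neutrophil collagenase, Chil3 and Lcn2. Lcn2 went from 6.56 CPM on average to 438 with chow (log2 change 6.03 ± 0.79, adjusted p = 0.00142) and to 1208 CPM with ethanol (7.50 ± 0.83, 0.00017). Of the other 10 mature neutrophil genes tested 7 rose with chow and 7 with ethanol. One of them was Cxcr2, the chemokine receptor of circulating neutrophils, with log2 changes of 4.75 ± 0.59 and 3.26 ± 0.59 (adjusted p = 0.00114 and 0.00271). Of the other 4 primary granule genes tested 2 rose in each, Prtn3 and Ctsg. Of 9 recruitment genes 5 rose with chow and 4 with ethanol, and of 3 transcription factors 2 rose in each. All 6 subunit genes of the phagocyte NADPH oxidase rose in each, Ncf1 by 2.30 ± 0.20 with chow and 1.82 ± 0.19 with ethanol. Against this, Hdc fell with ethanol by 1.13 ± 0.26 (adjusted p = 0.00997) and Itgb2l by 0.51 ± 0.14 (0.0247), and Wfdc21, at 273 to 559 CPM in every library, did not pass in either.

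Markers of other cells moved over this interval as well. Of 8 monocyte genes 7 rose with chow and 8 with ethanol, from a summed 133 to 134 CPM at day 0 to 483 to 944 CPM with chow and 672 to 784 CPM with ethanol. This list holds Chil3, which is also on the granule list, and Lyz2, which neutrophils transcribe too. Of 8 Kupffer cell genes 8 and 7 rose, and of 10 acute phase genes 7 and 9. Of 5 cell cycle genes 4 rose with chow and 5 with ethanol, from a summed 31.3 to 44.1 CPM to 192 to 222 and 107 to 377 CPM. Of 3 platelet genes 1 and 2 rose. Of 5 hepatocyte genes 0 passed with chow, and with ethanol 1 rose and 3 fell. Of the lymphocyte list 0 of 6 passed in either. Their part in the neutrophil genes' rise was not tested.

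Under ethanol at day 20, CCl4 livers were compared with OO livers, 3 libraries each. All 10 members were higher, where 23.7% of genes were called and 12.7% called higher, and 9 of 10 had no overlap, the exception being Elane, against 18.8% of all genes in this direction. The median log2 change was 3.08, against -0.04 over all genes. Ltf had the largest change and averaged 15.0 ± 8.95 CPM against 0.527 ± 0.140 CPM (log2 change 4.87 ± 0.52, adjusted p = 0.000135), while Ngp rose by 4.40 ± 0.83 (0.00317) and Camp by 4.07 ± 0.64 (0.00115). Mpo rose by 4.29 ± 1.06 (adjusted p = 0.0133) and Elane by 3.25 ± 0.94 (0.0272), both on few reads in OO livers. The S100 genes rose less, S100a8 by 2.36 ± 0.46 (adjusted p = 0.00402) and S100a9 by 2.18 ± 0.43 (0.00425), from 10.4 ± 4.00 to 46.7 ± 20.1 CPM. Retnlg rose by 1.25 ± 0.32 (adjusted p = 0.0152), Csf3r by 0.62 ± 0.18 (0.0298) and Ly6g by 2.90 ± 0.93 (0.0447). Ly6g had 1, 1 and 0 reads in libraries 13, 14 and 15 and 3 in library 19, all at or under the floor. The size of its change and its lack of overlap are therefore uncertain. No test of the differences between members was made. Leaving out one library in turn kept 5 to 10 calls. The 5 members called each time were S100a8, S100a9, Ltf, Ngp and Camp. Without library 15 the calls of the other 5 were lost (adjusted p from 0.0525 for Mpo to 0.123 for Ly6g), and without library 14 those of Elane, Retnlg, Csf3r and Ly6g (0.0537 to 0.119). Without library 18 or 20 Elane, Csf3r and Ly6g were lost (0.0603 to 0.131), and without library 13 Ly6g (0.0516). By limma-voom Mpo and Elane were not called (0.151 and 0.128), and by DESeq2 Ly6g was not (0.0982). In a fit on these 6 libraries alone Csf3r was not called (0.0714).

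Of the other neutrophil genes 4 of 8 secondary and tertiary granule genes rose under ethanol, Mmp8 by 2.51 ± 0.38, Chil3 by 2.37 ± 0.48, Cd177 by 2.75 ± 0.62 and Slpi by 1.71 ± 0.47 (adjusted p = 0.00099, 0.00462, 0.00814 and 0.0218). All 6 NADPH oxidase genes rose, Cybb, its catalytic subunit, by 1.52 ± 0.16 (adjusted p = 0.000135). Only 2 of 10 other mature neutrophil genes rose, Trem1 by 1.66 ± 0.46 and Clec4d by 2.05 ± 0.64 (0.0233 and 0.0365). Of the recruitment list, 2 of 9 tested rose, the adhesion molecule Vcam1 (1.92 ± 0.22, adjusted p = 0.000189) and the chemokine Ccl3 (1.79 ± 0.45, 0.0147). Cxcl1, the main neutrophil-attracting chemokine on the list, read 40.9, 67.2 and 81.7 CPM in CCl4 and 194, 27.5 and 62.6 CPM in OO ethanol livers, so that the groups overlapped. In the primary granule list Serpinb1a, an inhibitor of elastase, fell by 0.92 ± 0.30 (adjusted p = 0.0452). Of the transcription factors Spi1, which encodes PU.1, rose by 1.04 ± 0.23 (0.0074) and Cebpe, a C/EBP factor of granule formation, fell by 0.94 ± 0.26 (0.0236).

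Beside this, 8 of 8 monocyte genes rose, with a median of 2.43 and a summed 672 to 784 CPM against 112 to 170 CPM. All 5 cell cycle genes rose, with a median of 4.50 and a summed 107 to 377 CPM against 10.6 to 13.4 CPM. Of 3 tested genes of eosinophils, basophils and mast cells 2 rose, though the summed list stayed at 1.85 to 3.21 CPM and Mcpt8 and Ms4a2 had 0 reads in library 20. Their part in the neutrophil genes' result was not tested. Of the Kupffer cell genes 4 rose and 1 fell, of 8, and 0 of 6 lymphocyte genes and 0 of 10 acute phase genes passed, the latter with a median of 0.04.

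**Figure D2:**
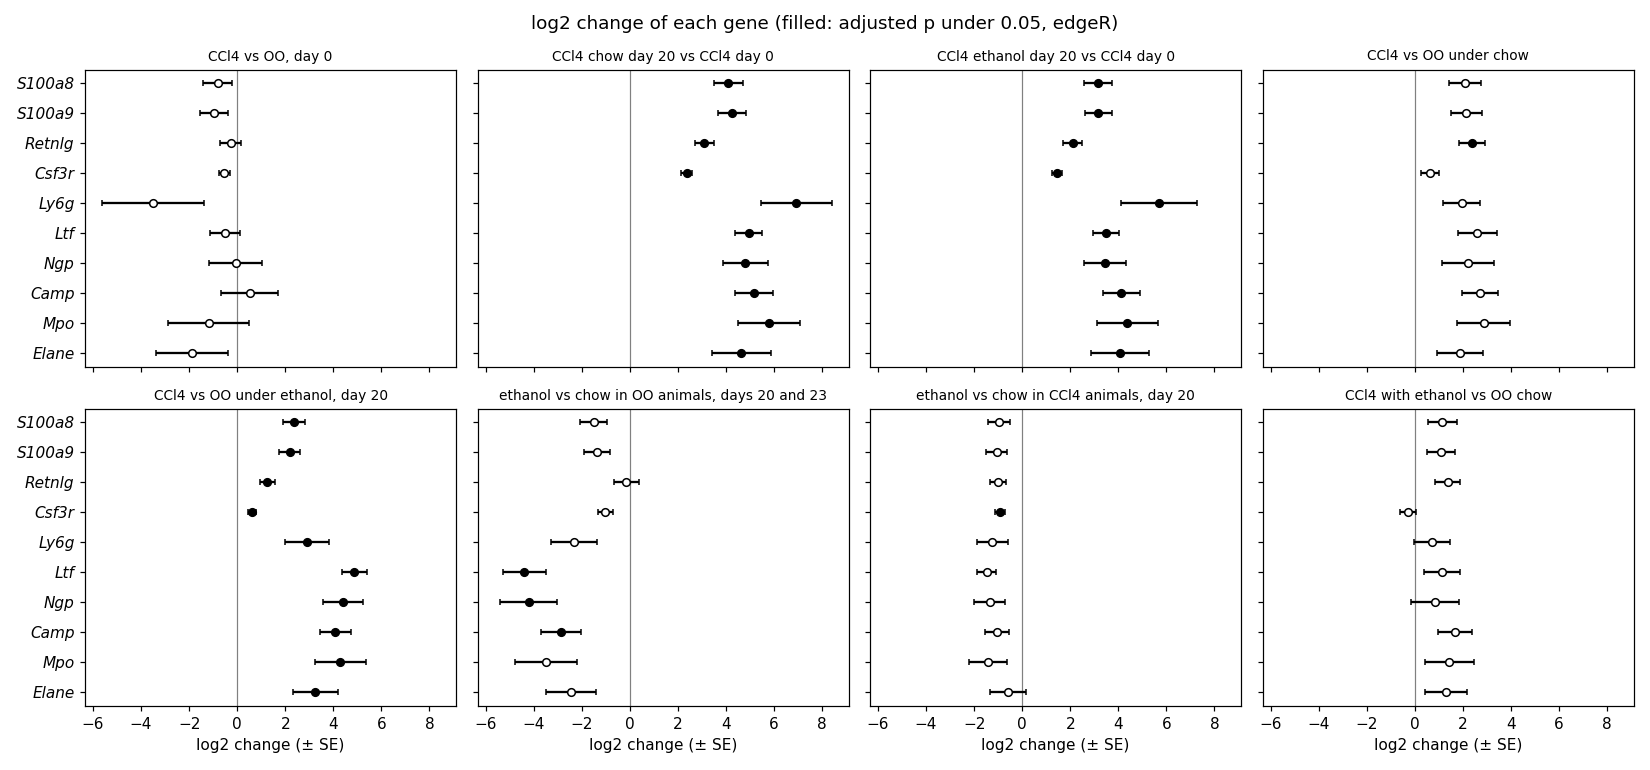
Fitted log2 change of each gene (horizontal axis, with SE bars) in 8 comparisons, filled where the adjusted p was under 0.05 in edgeR. All 10 are filled against CCl4 day 0 and under ethanol against OO, where the secondary granule genes lie farther right than Csf3r and Retnlg. The Ly6g values against CCl4 livers of day 0, where it had no read, depend on the prior count.

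Among CCl4 livers at day 20, all 10 members had lower fitted levels with ethanol than with chow, with a median log2 change of -1.06 against 0.01 over all genes, and 8 of 10 did not overlap, against 13.5% of all genes in this direction. Of the 10, 4 had an unadjusted p under 0.05 and only Csf3r passed, where 1.27% of genes were called and 0.765% called lower. Csf3r averaged 9.79 ± 1.89 CPM with ethanol (n = 3) and 18.7 ± 1.03 CPM with chow (n = 2), a log2 change of -0.93 ± 0.19 (adjusted p = 0.0438). Leaving out library 16, 17, 19 or 20 ended the call (adjusted p from 0.0928 to 0.284), and so did a fit on these 5 libraries alone (0.111). Ltf, at 15.0 ± 8.95 against 41.3 ± 8.64 CPM, had the largest difference, -1.47 ± 0.40 (adjusted p = 0.129), and passed by DESeq2 (0.0428). S100a9 differed by -1.07 ± 0.44 (adjusted p = 0.352), Retnlg by -1.01 ± 0.32 (0.212), Mpo by -1.43 ± 0.80 (0.548) and Elane by -0.59 ± 0.77 (0.824). For Ngp and Elane library 20 lay above library 17. Of the fixed neutrophil lists 0 of the other genes tested passed, and neither did the 8 monocyte genes, whose median was 0.34. All 6 lymphocyte genes had negative changes, with a median of -1.10, 0 called and a summed 3.54 to 4.09 CPM with ethanol against 7.04 to 9.58 CPM with chow. Of 3 erythroid genes tested 1 fell, and that list summed to 35.6 to 49.96 CPM against 102 to 103 CPM. Of 8 Kupffer cell genes 1 fell, with a list median of 0.15. Their part in the members' differences was not tested.

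Under chow the CCl4 livers were set against library 12 and library 5 taken as 1 arm, in a model with 6 arms. These 2 controls differ in day, in substudy and in how OO is given in their titles, which cannot be told apart. All 10 members had a positive change with a median of 2.18, and none overlapped, against 22% of all genes that were higher without overlap. Of the 10, 1 passed, where 1.66% of the 14315 genes tested were called and 1.29% called higher. This was Retnlg, at 8.95 ± 0.864 CPM against 1.73 ± 1.35 CPM (log2 change 2.39 ± 0.55, adjusted p = 0.0486, n = 2 each). Its call was lost without library 5, 16 or 17 (adjusted p = 0.535, 0.0962 and 0.254) and on these 4 libraries alone (0.0589). The spread between the 2 controls was wide. Library 12 exceeded library 5 by 3.12-fold for S100a9 (95% exact interval 2.60 to 3.75), 10.2-fold for Ltf (6.30 to 17.3), 32.3-fold for Ngp (13.5 to 101) and 2.79-fold for Csf3r (2.19 to 3.58). The intervals cover counting error only. Leaving out library 12 leaves library 5 as the only OO chow library, and calls over all genes then rose as well. Without library 12, 4 members passed, Ltf (5.10, adjusted p = 0.025), Camp (4.33, 0.0481), Csf3r (1.59, 0.0285) and Retnlg. Without libraries 6 and 12, 6 passed. Against library 12 alone, library 16 was 2.74-fold higher for S100a9 (2.45 to 3.07) and 3.77-fold for Ltf (3.17 to 4.52), and library 17 was 3.10-fold (2.78 to 3.46) and 2.80-fold higher (2.34 to 3.36). For Ngp the ratios were 3.19 (2.63 to 3.90) and 1.49 (1.20 to 1.86), and for Csf3r 1.09 (0.909 to 1.31) and 1.008 (0.841 to 1.21).

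Library 12 also stood out in other lists. Its monocyte genes summed to 514 CPM against 230 CPM in library 5, its Kupffer cell genes to 1509 against 1010 CPM, and Marco, a macrophage scavenger receptor, read 223 CPM, the highest of the 15 libraries. It carried pancreas transcripts at a summed 116 CPM, and library 6, with as much (115 CPM), had a summed level of the 10 members of 12.6 CPM. What these features have to do with its levels of the 10 members was not tested.

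In OO livers ethanol (libraries 6, 13, 14 and 15) was set against chow (libraries 5 and 12). Both arms mix the 2 substudies, whose titles give OO differently. All 10 members had a negative change, with a median of -2.37, and 3 passed, where 7.96% of genes were called and 3.53% called lower. These were the secondary granule genes Ltf, at 0.395 ± 0.287 CPM (n = 4) against 6.90 ± 8.01 CPM (n = 2), with -4.39 ± 0.90 (adjusted p = 0.0127), Ngp with -4.21 ± 1.20 and Camp with -2.86 ± 0.82 (adjusted p = 0.0482 for both). All 3 calls rested on library 12, without which calls over all genes fell as well. Without it the values were -1.91 for Ltf (adjusted p = 0.454), -0.18 for Ngp (0.986) and -1.26 for Camp (0.656), and 0 members passed. Without libraries 6 and 12 Ngp, Retnlg and Csf3r had positive changes of 0.47, 1.27 and 0.03. Without library 6, 14 or 15 only Ltf was called. Without library 5 or 13 the number was 4, Csf3r being added (adjusted p = 0.00432 and 0.0371), and with the substudy as a term it was 6. With that term 1474 of 14315 genes were called, against 1139 without it. By limma-voom 0 of the members passed, with 0.0871 for Ltf. In the same comparison 4 of 8 monocyte genes, 4 of 8 Kupffer cell genes and 4 of 6 NADPH oxidase genes fell, among them Cybb by 1.02 ± 0.18 (adjusted p = 0.00716). Without library 12, or without libraries 6 and 12, 0 genes of these 3 lists passed, and Cybb was at -0.65 ± 0.21 (0.183) and -0.66 ± 0.21 (0.220). Their part in the granule genes' result was not tested.

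The pair of day 23 libraries, 1 per group and so without a test, gave the same comparison apart from library 12. S100a9 was at 4.38 CPM with ethanol and 10.7 CPM with chow, a ratio of 0.408 (95% exact interval 0.319 to 0.520, counting error only). Ltf had 0 reads against 19, which puts the ratio at no more than 0.124, and Retnlg, with 21 and 12 reads, had a ratio of 1.02 (0.477 to 2.26). Csf3r had 0.722 (0.549 to 0.952). Ltf had the lowest upper limit, while those of the other 4 granule genes, 0.623 to 0.645 on 0 to 2 reads with ethanol, lay above those of S100a8 and S100a9. The pair holds library 6 with its pancreas transcripts.

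A further 4 contrasts gave 0 calls among the members, with 2, 2, 1 and 6 members at an unadjusted p under 0.05 in the order given here. DESeq2 called 0 in each, and limma-voom called 1, Retnlg (adjusted p = 0.0484), in the first and 0 in the others. For CCl4 with ethanol against OO chow, where 10.4% of genes were called, 9 of 10 were positive with a median of 1.14. Without library 12, Ltf (3.64, adjusted p = 0.0336) and Retnlg (2.55, 0.0357) passed. For OO chow against OO day 0 (0.0838% called) all 10 were positive with a median of 1.34, and without library 12 only 6. For the CCl4 by ethanol interaction (0.14% called) 9 were positive with a median of 1.44, and without libraries 6 and 12 only 2. Whether the CCl4 effect under chow differed from that at day 0 was tested as a contrast added after the data were seen. All 10 members were more positive under chow, with a median difference of 3.01, and 0 passed (lowest adjusted p = 0.252, 0.279% of genes called), with 2 passing without libraries 6 and 12.

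The make-up of the reads of the 10 genes differed between livers. Ltf, Ngp and Camp together gave 15.9% to 32.4% of the reads of the 10 genes in the 5 CCl4 livers of day 20, and 0.601% to 7.84% in the 4 OO ethanol livers. The day 0 livers had 10.5% to 18.9%, which overlaps the CCl4 livers of day 20 through library 4, and library 12 had 24.1% (95% Clopper-Pearson interval 21.9% to 26.5%) against 7.55% (5.25% to 10.4%) in library 5. Csf3r went the other way, with 4.92% to 11.1% in the 5 CCl4 livers and 15.2% to 36.6% in the other 10, so that the 2 sets did not overlap. S100a8 and S100a9 held 46.7% to 71.9% in all 15. Mpo and Elane gave 4.22% to 6.15% in libraries 16, 17, 18 and 20 and 0.948% (0.474% to 1.69%) in library 19, with 0% to 4.04% elsewhere. No test was made of these shares.

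**Figure D3:**
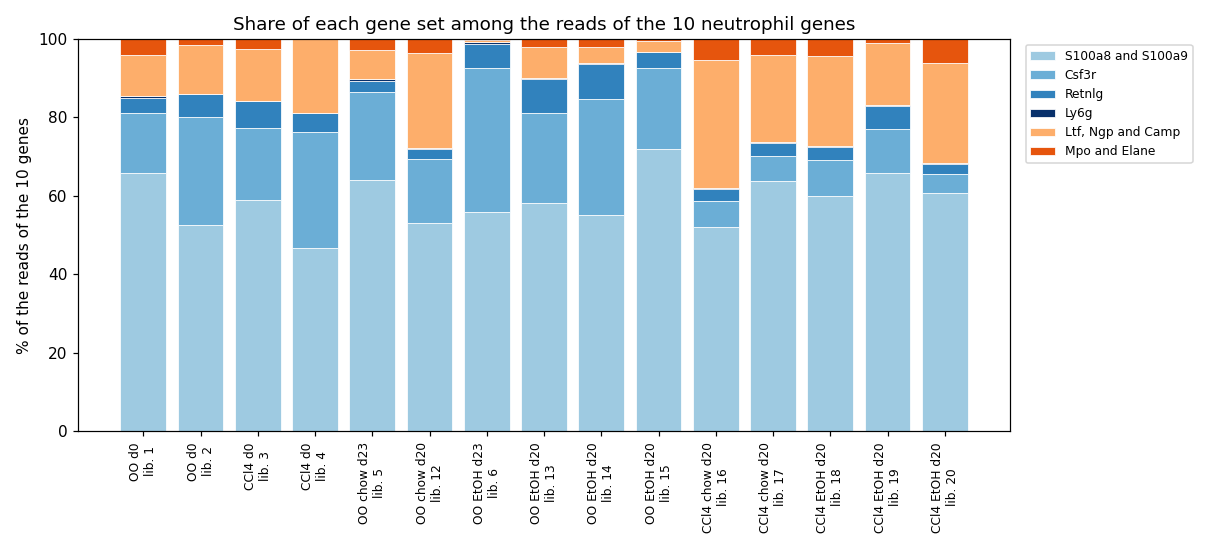
Share of each gene set among the reads of the 10 genes (vertical axis, %) in each library (lib., horizontal axis). The orange part, Ltf, Ngp and Camp, takes 15.9% to 32.4% in the 5 CCl4 livers of day 20 and 24.1% in library 12, and library 19 lacks most of the dark orange part, Mpo and Elane.

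Library 19 had lower levels of the granule genes than both other CCl4 ethanol livers. Library 20 exceeded it 22.4-fold for Mpo (9.94 to 62.6), 12.9-fold for Elane (5.16 to 41.6), 5.26-fold for Ngp (3.87 to 7.26) and 3.98-fold for Ltf (3.15 to 5.06). For S100a9 the ratio was 2.52 (2.24 to 2.84), for Retnlg 1.19 (0.831 to 1.71) and for Csf3r 1.23 (0.953 to 1.60). Library 18 exceeded library 19 by less for most of these, 9.86-fold for Mpo (4.35 to 27.6), 6.06-fold for Elane (2.41 to 19.6), 2.71-fold for Ngp (2.00 to 3.74), 2.52-fold for Ltf (2.01 to 3.19) and 1.76-fold for S100a9 (1.58 to 1.98). Csf3r was 1.48-fold higher in library 18 (1.19 to 1.84), and Retnlg had a ratio of 0.967 (0.703 to 1.34). The cell cycle list, which proliferating granulocyte precursors share with dividing hepatocytes, summed to 107 CPM in library 19 against 377 and 331 CPM in libraries 18 and 20, and its monocyte list to 784 CPM, the highest of the 3. Their relation to the low Mpo and Elane was not tested.

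Over the 15 libraries the gene outside the list whose log2 level was most like the members' mean was Cd177, a neutrophil surface glycoprotein (Pearson r = 0.976, Spearman rho = 0.954). Among those that followed were Psrc1 (0.958), Axl (0.95), Pfkfb4 (0.948), Fcnb (0.946), Ikzf1 (0.945) and Arhgdib (0.945), all by Pearson r. The nearest gene was Slfn4 for S100a8 and S100a9 (0.948 and 0.952) and Csf3r (0.963), Cd177 for Ltf (0.955), Ngp (0.970) and Elane (0.933), Axl for Camp (0.973), Lin28a for Mpo (0.962), Ptgir for Retnlg (0.943) and Mapk7 for Ly6g (0.971). Lin28a averaged only 0.167 CPM over the 15 libraries, within the range of the detection floor, so its place rests on few reads. Cd177 thus stood among the 3 nearest genes of each granule member. Among genes picked after the data were seen, Lyz2 had an r of 0.879, Mki67 0.836 and Prtn3 0.547, while Lcn2 had 0.405 and Saa1 0.237. Lcn2 was high in OO livers at day 0, where the members were scarce, and so did not follow the other granule genes in these livers. The 15 points share 8 treatment groups, and with the 2 libraries farthest from the median left out the r of Cd177 was 0.959. Without libraries 6 and 12 it was 0.978.

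**Figure D4:**
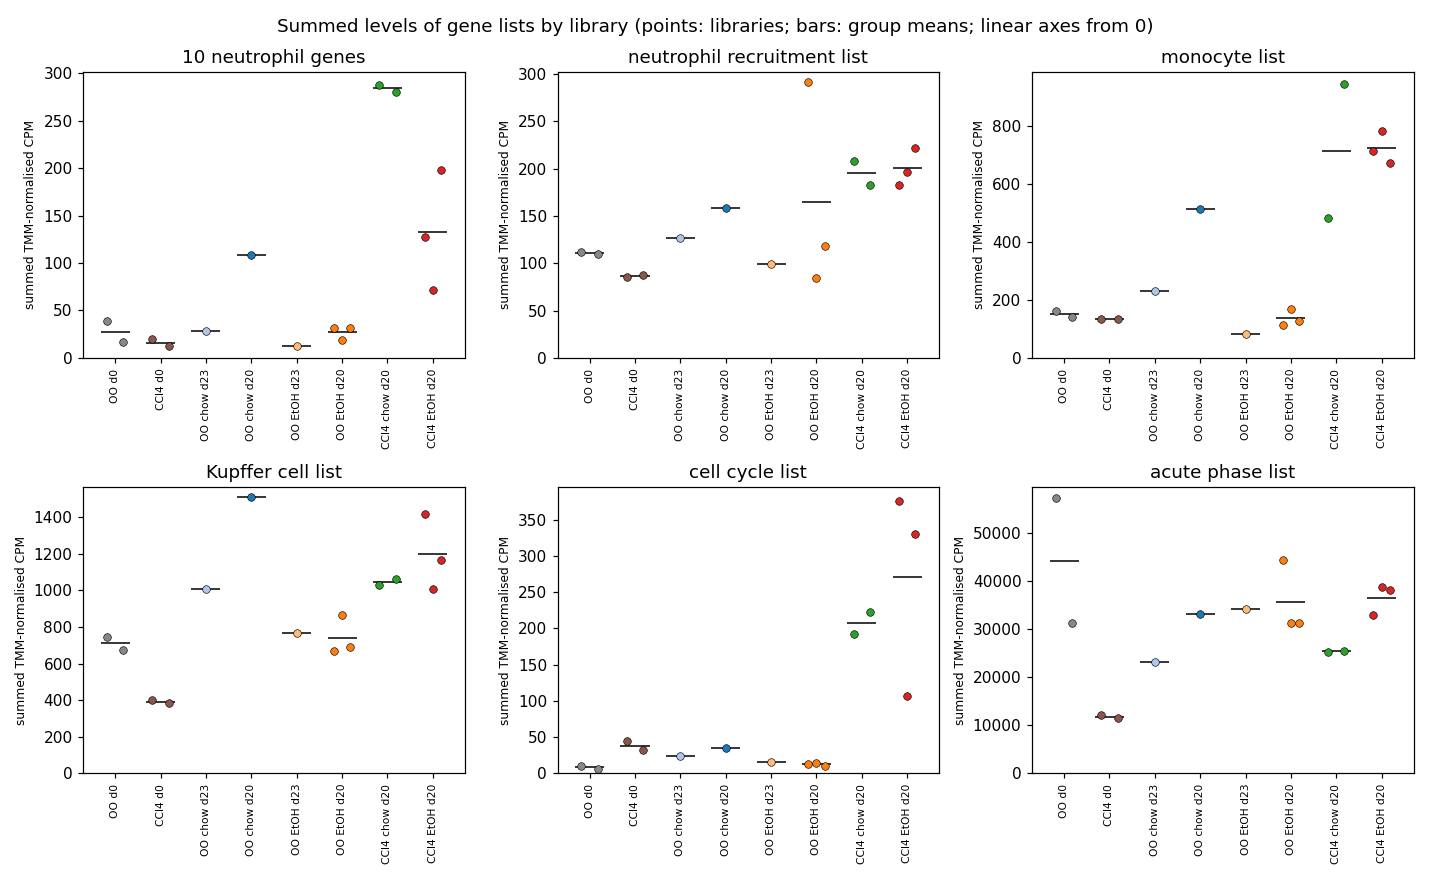
Summed level of 6 gene lists in each library (TMM-normalised CPM, linear axes from 0, points for libraries, bars for group means). The neutrophil, monocyte and cell cycle sums reach their highest values in CCl4 livers of day 20, while the acute phase sum is lowest in CCl4 livers of day 0 and highest in library 1, an OO liver of day 0.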

How the data were processed

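The TruSeq mRNA kit was used on liver RNA, per the labels' protocols. The authors deposited 1 table of unnormalised read counts by gene symbol for each library. Reads were aligned with GSNAP to mm10, per the submitters' processing notes, where DESeq2 1.12.3 is named too. Sources used here do not give the counter, the gene annotation or the strand setting, so reads of Mpo and its antisense partner cannot be told apart. The 5 entries for reads given to no gene (47% to 58.6% of reads listed) were left out, and those that aligned to several places were 18.1% to 28.8%. Where table names and labels differ in day, the labels were followed. No pair of replicate libraries matched within counting noise (chi-square per degree of freedom 3.93 to 78.4).

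After TMM scaling and filterByExpr, edgeR's quasi-likelihood test (version 4.0.16, R 4.3.3) was run over 8 groups (14778 genes, 7 residual degrees of freedom) or, where OO chow is used, over 6 arms (14315 genes, 9 residual degrees of freedom), with Benjamini-Hochberg adjustment over all genes. A group of 1 library is assumed to vary like the others. SD is between libraries. The SE is the log2 change divided by the square root of F. Correlations used log2 CPM with a prior count of 2. Alternatives were RLE scaling, other filters, DESeq2 1.42.0, limma-voom 3.58.1 with and without lane as a block, fewer libraries, the substudy as a term and each library left out. The fits were tested on simulated data.

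All 10 members are named in each main comparison, with up to 4 other genes per fixed list by smallest adjusted p, and the 8 genes most like the members' mean, of which 1 is not reported here. Values of other genes, such as Cxcl1, Hdc, Itgb2l, Wfdc21 and Marco, were added after they were seen. The members and the 16 gene lists were chosen with earlier results of these data known. Coordinates are from GENCODE M21 and promoter sequences from RefSeq, both GRCm38.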

Additional observations from a re-analysis of the deposited data

Results flagged for a closer look

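Among the 4 OO ethanol livers, the only arm with enough libraries to be screened, the level of Ngp in library 13 stood far from the others. It was 1.29 CPM (13 reads), against 0 to 0.177 CPM in libraries 6, 14 and 15, and the gap was 0.863 of the arm's whole range. Chance flags about 1 in 20 groups, and 10 genes were screened. In CPM library 13 was also the highest of the 4 for Camp (0.594 CPM against 0.0754 to 0.313 CPM), Mpo, Elane, Retnlg, Csf3r and Ly6g. Library 15 was highest for Ltf, S100a8 and S100a9. For Camp, Mpo, Elane and Ly6g library 13 held only 6, 3, 4 and 1 reads, against 6, 4, 3 and 1 in the deeper library 14. Their order thus rests on few reads.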

How the results depend on the processing

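No paired analysis was possible because each library has a number of its own, shared by no other group. Counts of members called, 10 for CCl4 against OO under ethanol and 10 for each rise from day 0, were 6 in the first when only the compared libraries were fitted, which left 7 members past the filter, and 5 to 10, 5 to 8 (chow) and 5 to 10 (ethanol) when a library was left out. For ethanol in CCl4 livers (main 1) the count was 2 by DESeq2 and by limma-voom with lane, 0 on the compared libraries alone and 0 to 1 with a library left out. For ethanol in OO livers (3) it was 0 by limma-voom with or without lane, 0 on the compared libraries alone, 0 with only the day 23 chow library, 0 without libraries 6 and 12, 6 with the substudy term and 0 to 4 with a library left out. For CCl4 under chow (1) it was 2 by DESeq2, 0 on the compared libraries alone and with only the day 20 control, 6 with only the day 23 control and without libraries 6 and 12, and 0 to 4 with a library left out. For CCl4 with ethanol against OO chow (0) it was 1 by limma-voom, 2 with only the day 23 control and without libraries 6 and 12, and 0 to 2 with a library left out. For OO chow against day 0 (0) it was 1 with only the day 20 library and 0 to 1 with a library left out, and for the added contrast (0) it was 3 with only the day 23 control and 2 without libraries 6 and 12. Leaving out libraries 6 and 12, and refitting the other lists without library 12, were chosen after seeing the data. The interaction gave 0 under every alternative run. Members with a positive change at day 0 (1) numbered 2 by limma-voom with or without lane, 0 on the compared libraries alone and 0 to 5 with a library left out. For ethanol in OO livers (0) they were 3 with only the day 23 control and without libraries 6 and 12, and 0 to 1 with a library left out. For OO chow against day 0 (10) they were 6 under both and 6 to 10 with a library left out, and for the interaction (9) they were 2 under both and 4 to 9 with a library left out. Single log2 changes that turned sign were, at day 0, Ngp by limma-voom without (0.19) and with (0.0676) lane. With a library left out at day 0, S100a8 ranged from -1.70 to 0.13, Ngp from -0.75 to 1.11, Camp from -0.23 to 1.86, Mpo from -5.73 to 1.14, Retnlg from -1.06 to 0.14 and Ly6g from -4.54 to 0. For ethanol in OO livers Ngp, Retnlg and Csf3r were 0.45, 1.25 and 0.0072 with only the day 23 control and 0.47, 1.27 and 0.0257 without libraries 6 and 12, and Retnlg ranged from -0.79 to 1.009 with a library left out. For CCl4 with ethanol against OO chow Ngp was -0.13 with only the day 20 control and Csf3r 0.62 with only the day 23 control and 0.66 without libraries 6 and 12, with ranges of -0.13 to 4.90 and -0.86 to 0.68 with a library left out. Over all genes the number called moved as well, at day 0 from 304 to between 52 and 2240, and for ethanol in OO livers from 1139 to between 94 and 2251. The cause of these changes was not tested. Depth limits Ly6g, Elane and Mpo, which had at most 9 reads per library outside the day 20 CCl4 livers and library 12.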
